A study of Mus musculus with 2 samples.

Results

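The Reg genes encode a family of small secreted proteins built around a single C-type lectin domain, and 7 of them (Reg1, Reg2, Reg3a, Reg3b, Reg3d, Reg3g and Reg4) were followed here in beta-cell samples of mice fed a high-fat diet. The members were taken by name: each had 1 gene probe carrying its symbol, printed as 1 spot, so that 7 of the 55681 gene probes of the array were described. The samples were labelled CSE-KO, beta cells of mice lacking CSE (cystathionine gamma-lyase, the hydrogen sulfide-producing enzyme encoded by Cth), and CSE-WT, beta cells of wild-type mice, which the study used as its control. The strain given for both was C57BL/6J, the age 6 months and the diet high in fat. Each genotype was measured on 1 one-colour (Cy3) Agilent array. The number of animals behind each sample, the extent of the deletion and whether the cells were sorted are not given in the sources used here. With 1 array per genotype there was no replicate and no test. Every difference below compares these 2 samples, and a fixed size of 2-fold took the place of a test.

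In the pancreas, Reg proteins are made largely by acinar cells and are secreted with the digestive enzymes. Their transcripts are known to rise in acinar tissue during inflammation, in part through cytokines of the IL-6 and IL-22 families that act through the transcription factor STAT3. Reg proteins have also been studied as growth factors for islet cells. In the mouse intestine, Reg3b and Reg3g act as antibacterial lectins at the mucosal surface.

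The arrays were similar in depth of signal. In CSE-KO 59.6% of gene probes were well above background by the flag in the files, and in CSE-WT 57.0%. The median of 308 negative-control spots was 3.11 intensity units in CSE-KO and 3.86 in CSE-WT. Both samples are labelled as beta cells, and the insulin gene Ins1 gave 482701 units in CSE-KO and 503410 in CSE-WT. Genes of other pancreatic cells were bright too. The alpha-cell hormone gene Gcg gave 360773 units in CSE-KO and 381292 in CSE-WT, and the acinar amylase gene Amy2a5 gave 149025 units in CSE-KO and 191897 in CSE-WT. In such mixed RNA, fewer cells of a type and less RNA per cell cannot be told apart. The 2 probes of Cth gave 3.15 and 3.68 units in CSE-KO and 13.5 and 12.8 in CSE-WT, without being well above background in either sample. Their position relative to the deletion was not determined, and they check nothing about the genotype labels.

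Because the Reg genes are close relatives, the probes themselves are shown first. Each is a 60-base oligonucleotide of the array design, placed on mouse build mm9 by the files. The first 30 bases are printed 5′ to 3′, with the longest stretch within them that also occurs in another Reg probe in capitals.
Reg1: ggaccatctatcAAAAGCAaattagatcct
Reg2: acagtactccttTGTCTgcaagttcagagc
Reg3a: cccatgacaagggatgaaatacaAGAATTc
Reg3b: gtgaagactcacctagaAAAAGCAttttct
Reg3d: gtgtattctctggggactctgGCCTAAgga
Reg3g: gagtacAGAATTgacatcatgggttgatat
Reg4: gcattgcgctgaGATGAAccccaaggataa
No stretch longer than 7 bases was shared between any of the 7 full probes, and their pairwise identity over 60 bases lay between 38.3% and 50%. The most similar of the 55674 other gene probes on the array reached 61.7% for 6 of the Reg probes and 60% for Reg3g. These figures compare probes with probes. Binding of a Reg probe to the transcript of another Reg gene was not tested, because transcript sequences were not used here.

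A group of 6 Reg probes lay in 1 stretch of chromosome 6 in mm9. In order along the chromosome they were Reg3b (chr6:78323323-78323382, plus strand), Reg3d (chr6:78325868-78325927, minus strand), Reg3a (chr6:78333635-78333694, plus strand), Reg2 (chr6:78357959-78358018, plus strand), Reg1 (chr6:78378527-78378586, plus strand) and Reg3g (chr6:78416420-78416479, minus strand). The Reg4 probe lay on chromosome 3 (chr3:98037005-98040251, plus strand). Its 60 bases span 3247 bases of genome, so it crosses at least 1 intron. Which exon or UTR the other probes fall in was not determined, since a genome annotation of this build was not used here.

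**Figure D1:**
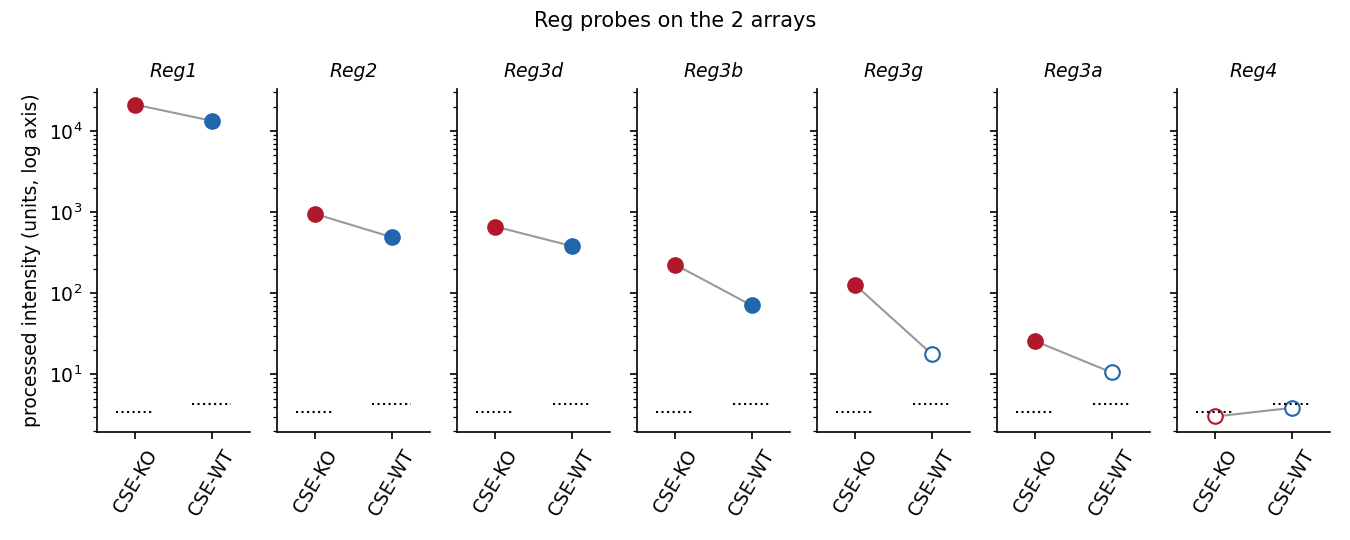
Processed intensity (log axis) of the 7 Reg probes in CSE-KO (red, left) and CSE-WT (blue, right), 1 array each. Filled points were well above background, open points were not, and dotted lines mark the 95th percentile of the negative controls (3.43 units in CSE-KO, 4.32 in CSE-WT). The line falls from CSE-KO to CSE-WT for every gene except Reg4, and heights of different probes are not comparable.

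The chromosome 6 members were brighter in CSE-KO, and Reg4 was at background in both samples. Reg1, Reg2, Reg3b and Reg3d were well above background on both arrays, Reg3a and Reg3g in CSE-KO only, and Reg4 on neither. Of the 4 measured on both arrays, all 4 were higher in CSE-KO, where 48.7% of the 22140 measured genes were higher by any amount. Reg3b alone passed 2-fold, where 0.718% of measured genes did. Its level lay below the median of measured genes, where 1.31% of genes were at least 2-fold higher. The median over the 4 was 0.81 log2 units after scaling, against -0.01 over all measured genes. No member was saturated.

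Reg1 and Reg2 belong to the branch of the family first described as pancreatic stone protein, a protein of pancreatic juice. Reg1 gave 21168 intensity units in CSE-KO and 13369 in CSE-WT. After each array was divided by its 75th percentile, this was a 1.52-fold difference, or 0.61 log2 units with a technical spot SD of 0.05 (from probes printed 10 times at the same level). Reg2 gave 949 units in CSE-KO and 493 in CSE-WT, 1.85-fold or 0.89 log2 units with a spot SD of 0.07. Both exceeded the spot SD more than 10 times over, but that SD is technical and does not cover the spread between animals or preparations. Reg1 and Reg2 lay above the median level of measured genes. Of the 11070 genes above that level, 0.659% were at least 1.5-fold higher in CSE-KO.

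The Reg3 group holds the inflammation-responsive and antibacterial members. Reg3b, known as pancreatitis-associated protein for its rise in the inflamed pancreas, gave 225 units in CSE-KO and 71.0 in CSE-WT. This was the largest difference among the measured members, 3.06-fold or 1.61 log2 units with a spot SD of 0.15. Its mean pixel signal was 287 units in CSE-KO and 138 in CSE-WT, over local backgrounds of 68.5 and 69.0 units. In CSE-WT 6 negative controls were as bright, and in CSE-KO 0. With the uncorrected mean signal the difference was 1.01 log2 units. Under the main setting Reg3b ranked 17th from the top of 22140 measured genes, while Reg2 ranked 232nd, Reg3d 376th and Reg1 631st. Reg3d, which the RefSeq table also lists as Ingaprp, gave 665 units in CSE-KO and 383 in CSE-WT. Its difference of 1.67-fold, 0.74 log2 units with a spot SD of 0.08, did not pass 2-fold. At least 1.5-fold, a size that all 4 measured members passed, was reached by 3.09% of measured genes. Of these 684 genes, 73 lay above the median level. Reg3b and Reg3d lay below it, so 3.09% understates the share among genes of their level.

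Reg3g, which in the mouse intestine binds Gram-positive bacteria, gave 126 units in CSE-KO and 17.9 in CSE-WT. It was well above background in CSE-KO only. Under the main setting its scaled signal in CSE-KO was 6.80 times its own signal in CSE-WT. That ratio is not a lower bound: the difference was 2.77 log2 units under the main setting and 1.09 with the uncorrected mean signal. Of 34741 genes on the array, 3.58% were well above background in CSE-KO alone and 1.56% in CSE-WT alone, and the background itself was lower in CSE-KO. Before any correction, the mean of the Reg3g spot's pixels was 190 units in CSE-KO and 86.5 in CSE-WT, over local backgrounds of 69.0 and 69.5 units in CSE-KO and CSE-WT. The signal in CSE-KO thus stood clear of its surroundings, and that in CSE-WT was only slightly brighter than them.

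Reg3a gave 25.7 units in CSE-KO, well above background, and 10.6 in CSE-WT, where it was not. Under the main setting its scaled signal in CSE-KO was 1.40 times the dimmest well-measured signal in CSE-WT. The difference of Reg3a was 1.22 log2 units under the main setting, with a spot SD of 0.53, and 0.17 with the uncorrected mean signal. In CSE-KO 2 negative controls were as bright, and in CSE-WT 10. The unscaled gap was small in pixels: the mean spot signal was 89.5 units in CSE-KO and 77.4 in CSE-WT, over local backgrounds of 67.0 and 66.0 units.

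Reg4, a member known mainly from secretory cells of the intestine, gave 3.03 units in CSE-KO and 3.87 in CSE-WT. In CSE-KO 223 of 308 negative controls were as bright, and in CSE-WT 147. The probe was therefore not distinguishable from background in either sample, and no fold is given. Whether low Reg4 transcript was present was not detectable with these arrays.

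**Figure D2:**
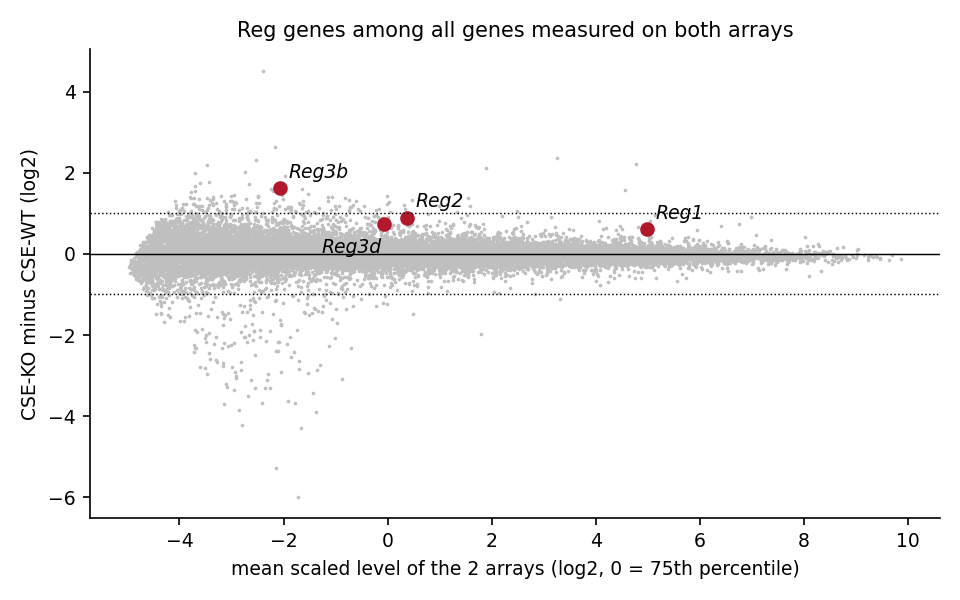
Difference between the arrays (CSE-KO minus CSE-WT, log2) against mean scaled level (log2, 0 is the 75th percentile of an array) for the 22140 genes measured on both arrays, with the 4 measured Reg genes in red. Dotted lines mark 2-fold. Reg3b lies above the line at 1.61, and Reg1, at 0.61, lies at the upper edge of the narrower cloud of bright genes.

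Under the main setting the measured members differed by unequal amounts. The difference of Reg3b exceeded that of Reg2 by 0.72 log2 units, that of Reg3d by 0.87 and that of Reg1 by 1.005, with spot SDs of these gaps of 0.17, 0.17 and 0.16. The difference of Reg2 exceeded that of Reg1 by 0.28 log2 units (spot SD 0.09). By contrast, Reg2 and Reg3d (0.15 apart, spot SD 0.11) and Reg3d and Reg1 (0.13 apart, spot SD 0.10) lay within 1.37 spot SDs of each other. These gaps depended on the treatment of background. With the uncorrected mean signal, the excess of Reg3b was 0.26 over Reg2, 0.38 over Reg3d and 0.30 over Reg1. Under that setting and both normexp settings, the excess of Reg2 over Reg1 was 0.04 to 0.05, below its spot SD, and Reg3d lay 0.07 to 0.09 below Reg1 rather than above it.

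**Figure D3:**
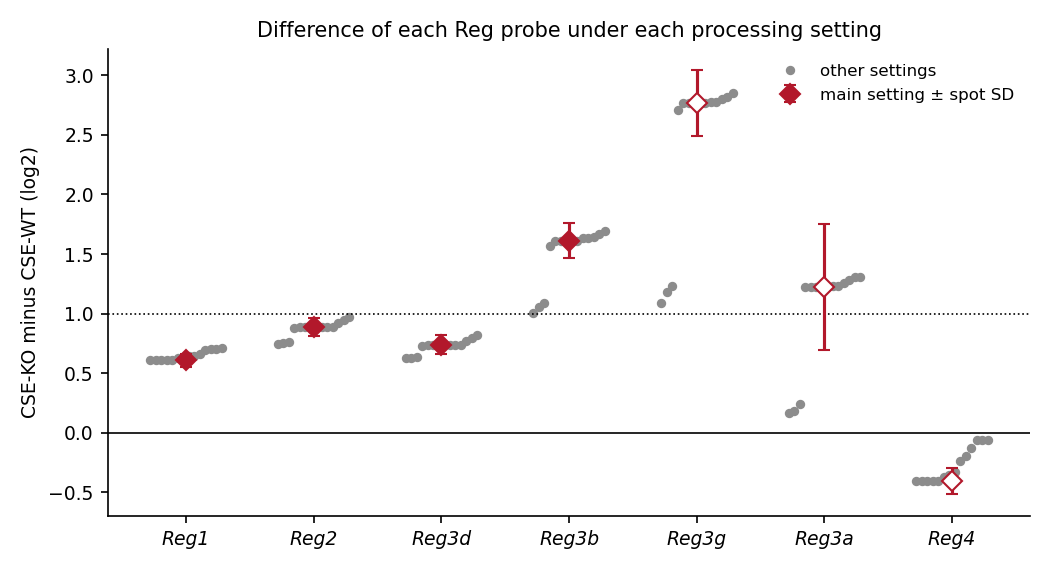
Difference of each Reg probe (CSE-KO minus CSE-WT, log2) under the main setting (diamonds, bars 1 spot SD, open for Reg3a, Reg3g and Reg4, which lacked a signal well above background in at least 1 sample) and under 14 other processing settings (grey). The dotted line marks 2-fold. Points of the 6 chromosome 6 members stay above 0, and the low points of Reg3b, Reg3g and Reg3a come from the settings that start from the mean pixel signal.

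The direction held for the 4 measured members under each of 14 other settings, but the sizes depended on how background was treated. Several of these settings could hardly move a Reg value. Changing the filter, the averaging of probes, the flags or the patches left the values almost as they were. Settings that only rescale an array shift every gene alike. Over all settings the difference of Reg1 lay between 0.61 and 0.71 log2 units, that of Reg2 between 0.74 and 0.97, that of Reg3d between 0.62 and 0.82 and that of Reg3b between 1.01 and 1.70. Reg3b ranked between 13th and 32nd among measured genes and Reg1 between 115th and 632nd, except with no filter on dim probes, where Reg3b ranked 302nd and Reg1 2496th of 34740 genes. For the probes not well above background in CSE-WT, the difference under the uncorrected mean pixel signal was 1.09 for Reg3g, against 2.77 under the main setting, and 0.17 for Reg3a, against 1.22. None of the 7 spots lay in a local patch in which neighbouring spots differed between the arrays. Among dim spots close by on the slide, the median difference was -0.35 around Reg3g, -0.36 around Reg3b and -0.45 around Reg1. It lay between -0.12 and 0.00 around Reg2, Reg3d and Reg3a. Around Reg4 it was -0.51, and the probe's own difference was -0.41. Negative controls were also dimmer in CSE-KO (median 3.11 units) than in CSE-WT (3.86). Spots near background can thus be lower in CSE-KO anywhere on the slide. The sign of these medians therefore shows nothing about local effects on the Reg spots.

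Acinar markers were set beside the Reg genes, since in the pancreas Reg proteins are made largely by acinar cells. The cell source of the Reg transcripts in these samples was not determined. All 27 acinar markers were measured, of which 14 were higher and 13 lower in CSE-KO, with a median of 0.01 log2 units. Past 2-fold, 0 were higher and 1, Ptf1a, was lower, where 0.89% of measured genes were lower by that size. Their summed scaled intensity in CSE-KO was 0.944 times that in CSE-WT. The procarboxypeptidase gene Cpa1 gave 62140 units in CSE-KO and 59469 in CSE-WT (difference 0.01), and the bile salt-stimulated lipase gene Cel differed by 0.04. The chymotrypsinogen gene Ctrb1 was higher (0.46), as were the transcription factor genes Rbpjl (0.43, its other probe 0.11) and Bhlha15 (0.17). Amy2a5 was lower (-0.42). The regulator gene Ptf1a gave 19.0 units in CSE-KO and 85.9 in CSE-WT (-2.24) and had its probe in a patch of the slide where nearby dim spots differed between the arrays, and the part of that patch in its value was not tested. Scaled to the summed acinar signal instead, a setting chosen after seeing the data, the Reg median was 0.90.

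**Figure D4:**
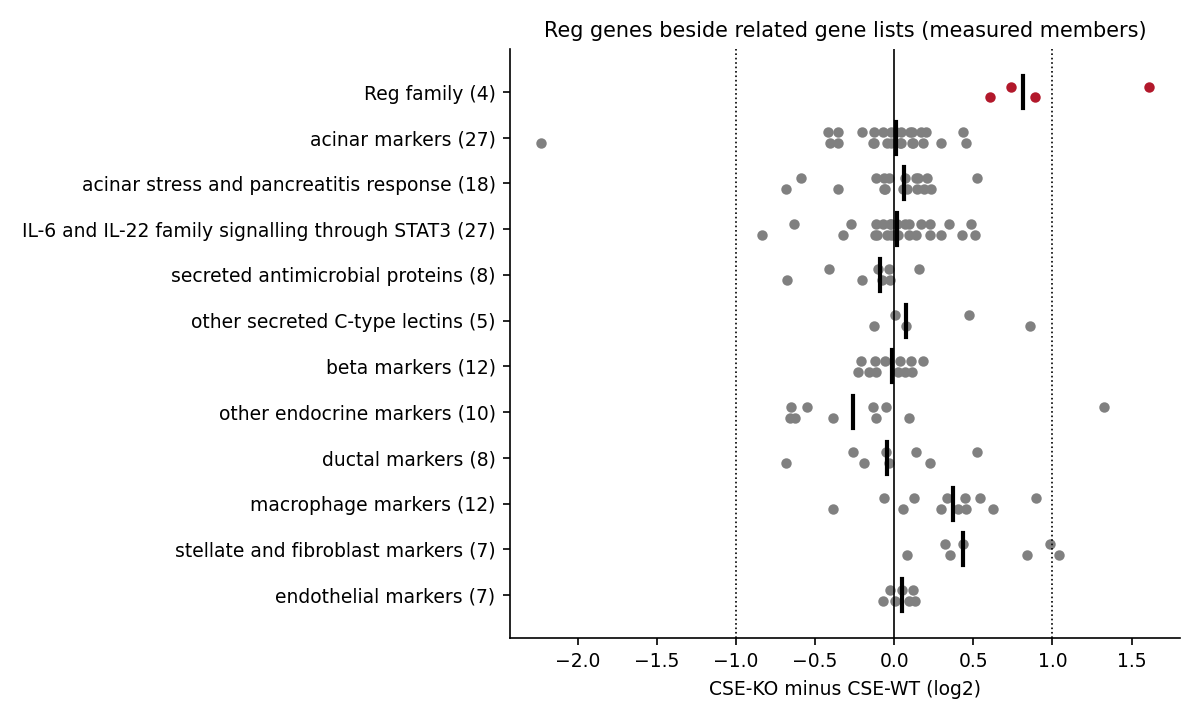
Differences (CSE-KO minus CSE-WT, log2) of the measured members of the Reg family (red) and of 11 related lists (grey), with the number measured in brackets and the median as a black bar. Dotted lines mark 2-fold. The Reg median is 0.81, the acinar median 0.01, and macrophage (0.37) and stellate markers (0.44) lie between them.

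Markers of macrophages and of stellate cells and fibroblasts moved with the Reg genes. Among macrophage markers, all 12 measured, 10 were higher in CSE-KO (median 0.37, summed scaled intensity 1.30 times that in CSE-WT), led by the integrin gene Itgax (0.89) and the Fc receptor subunit gene Fcer1g (0.62), with 0 past 2-fold. Among stellate and fibroblast markers 7 of 10 were measured and all 7 were higher (median 0.44, summed scaled intensity 1.31 times that in CSE-WT). By comparison, 48.7% of all 22140 measured genes were higher. The collagen gene Col3a1 passed 2-fold (1.04) and the proteoglycan gene Dcn was close to it (0.99). Both lay below the median level of measured genes, where 1.31% of genes were at least 2-fold higher. Pdgfra was not well above background in either sample. Lum and Fn1 were well above background in CSE-KO only, as were 3.58% of genes on the array. The part of these cells in the Reg differences was not tested.

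Other cell types gave smaller shifts or shifts of the opposite sign. Beta-cell markers had a median of -0.02 (6 of 12 higher, 0 past 2-fold), with Ins1 at -0.12 and Ins2 at -0.06. Other endocrine markers were lower in 8 of 10 (median -0.26), among them the alpha-cell gene Irx1 (-0.66), with Gcg at -0.14, while the ghrelin gene Ghrl was past 2-fold higher (1.33). Ductal markers had a median of -0.04 over 8 of 10 measured, of which 3 were higher and 5 lower. Krt7 was at -0.26, Krt19 at 0.23 (spot SD 0.36), Spp1 at 0.53 and Muc1 at -0.68 (spot SD 0.38), with Sox9 not well above background in either sample. Endothelial markers had a median of 0.05 over 7, with the largest difference in Cdh5 (0.13). Lymphocyte markers had a median of 0.01 over 5 of 10 measured, with Ptprc at 0.21. Of 7 enterocyte and Paneth cell markers 2 were measured, Vil1 (0.02) and Fabp2 (-0.25), and the intestinal regulator gene Cdx2 was at background in both samples.

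The upstream pathway of the Reg genes was read from 30 genes of IL-6 and IL-22 family signalling through STAT3. Of 27 measured, 14 were higher and 13 lower in CSE-KO, with 0 past 2-fold in either direction and a median of 0.02. Among the ligands, Il6 and Lif were at background in both samples, and Il22 gave 26.7 units in CSE-KO and 26.1 in CSE-WT (difference -0.02). Among the receptors, Il6ra differed by 0.09, the shared subunit gene Il6st by -0.27 and Il22ra1 by 0.51 with a spot SD of 0.29. The kinase gene Jak2 differed by 0.23. Stat3 gave 3991 units in CSE-KO and 3892 in CSE-WT, a difference of -0.02 (its other probe 0.07).

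Targets of that pathway other than the Reg genes went both ways, and the shifts largest against the spot SD were lower in CSE-KO. The feedback inhibitor gene Socs3 was lower, with 1375 units in CSE-KO and 2049 in CSE-WT (-0.63, spot SD 0.06). The transcription factor gene Cebpd was lower too (2062 and 3539 units in CSE-KO and CSE-WT, -0.83, spot SD 0.06). The kinase gene Pim1 was higher (0.48, spot SD 0.27). Extl3, which encodes a proposed receptor of Reg proteins, gave 7331 units in CSE-KO and 6461 in CSE-WT (0.13). In the list of Extl3 and proposed effectors, 4 of 10 were higher and 6 lower, with 0 past 2-fold and the largest difference in Egfr (-0.23, its other probes down to -0.46). Myc (0.20) followed, and the probes of Akt2 ran from -0.13 to 0.11.

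Other genes of the acinar stress and pancreatitis response did not show the Reg pattern as a list. Of 24 members 18 were measured, of which 10 were higher and 8 lower in CSE-KO (median 0.06, 0 past 2-fold). The median was -0.05 once dim probes were kept, where members at background in 1 or both samples enter. The background itself was lower in CSE-KO. The stress-response gene Nupr1 was lower (23461 units in CSE-KO, 34026 in CSE-WT, -0.59), as was the mucin gene Muc1 (-0.68, spot SD 0.38). The osteopontin gene Spp1 was higher (929 and 621 units in CSE-KO and CSE-WT, 0.53). Hp differed by -0.36 with a spot SD of 0.38.

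Secreted antimicrobial proteins and other secreted lectins were also read. Among the antimicrobial genes 8 of 16 were measured and 7 of these were lower in CSE-KO (median -0.09), including the lysozyme genes Lyz1 (-0.68) and Lyz2 (-0.41), with Pla2g2a at -0.21 and Defb1 at 0.16 (its probe in a patch of dim spots), and 0 past 2-fold. The median was -0.33 with no filter on dim probes, where members at background in 1 or both samples enter. Negative controls were also dimmer in CSE-KO (median 3.11 units) than in CSE-WT (3.86), so this value cannot be read as a larger fall. Among 13 other secreted C-type lectins 5 were measured and 0 passed 2-fold. The largest differences were in the collectin genes Colec11 (0.86, spot SD 0.31) and Sftpd (0.47), with Mbl2 at -0.13 and Sftpa1 at 0.08.

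The region around the Reg cluster held few other measured genes. Within 1 Mb of the chromosome 6 probes the named gene with a probe was 6330415B21Rik, 993010 bases away, with a difference of 0.20. Around Reg4 on chromosome 3, named genes nearby included Adam30 (not well above background), Phgdh, the first enzyme of serine synthesis (-0.50 and -0.43 for its 2 probes), and Notch2 (-0.03 for its measured probe). Over the 2 arrays, the named genes above the median level whose difference came closest to that of Reg3b were Gm11559 (1.38), Ghrl (1.33) and Ccl5 (1.32), each 0.23 to 0.29 log2 units below it. Reg3b itself lay below that level, so they were not matched to it in level.

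The sequence before each gene's start was compared, since the 4 members measured on both arrays are neighbours and were higher in the same sample. All 7 members matched an entry in RefSeq's promoter table (GRCm38.p6), and the 250 bases before the start were used. Reg3b and Reg3g had the most similar windows (68.4% identity over 250 bases, with a shared stretch of 20 bases). Reg1 and Reg2 followed at 56.0%, and all other comparisons lay between 44.4% and 51.2%. A link between likeness of the windows and the differences between the arrays was not tested. The 4 windows are shown for these likenesses, 5′ to 3′ on the strand of the gene, with matches to the 4 motifs named after them in capitals.
Reg3b (chr6:78370635-78370884, plus strand): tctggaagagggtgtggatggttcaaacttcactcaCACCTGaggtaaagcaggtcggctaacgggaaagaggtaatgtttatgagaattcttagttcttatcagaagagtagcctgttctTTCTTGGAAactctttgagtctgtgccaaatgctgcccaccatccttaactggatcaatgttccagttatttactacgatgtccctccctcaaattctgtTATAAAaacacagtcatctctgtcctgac
Reg3g (chr6:78468875-78469124, minus strand): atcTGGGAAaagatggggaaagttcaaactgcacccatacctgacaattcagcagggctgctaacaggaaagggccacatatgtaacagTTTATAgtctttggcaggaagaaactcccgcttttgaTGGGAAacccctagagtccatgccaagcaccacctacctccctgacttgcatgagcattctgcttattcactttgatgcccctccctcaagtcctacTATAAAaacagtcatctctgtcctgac
Reg1 (chr6:78425733-78425982, plus strand): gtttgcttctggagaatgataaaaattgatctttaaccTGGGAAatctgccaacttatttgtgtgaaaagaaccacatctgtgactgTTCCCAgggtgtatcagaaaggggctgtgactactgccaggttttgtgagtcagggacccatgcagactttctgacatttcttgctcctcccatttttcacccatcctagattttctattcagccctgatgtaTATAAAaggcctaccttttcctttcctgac
Reg2 (chr6:78404905-78405154, plus strand): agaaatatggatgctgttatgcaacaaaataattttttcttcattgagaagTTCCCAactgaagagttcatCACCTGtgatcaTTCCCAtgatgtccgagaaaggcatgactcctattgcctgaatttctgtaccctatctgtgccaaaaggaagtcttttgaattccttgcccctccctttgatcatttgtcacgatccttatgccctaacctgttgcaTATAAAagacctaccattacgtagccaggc
The motifs searched, on both strands, were TATAAA (the TATA box of core promoters), TTCNNNGAA (the form bound by STAT factors), CACCTG (an E-box) and TGGGAA (bound by RBPJ-type factors). The last 2 are parts of the site of PTF1, the acinar transcription complex.

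TATAAA was found in 4 of 7 Reg windows and in 12.4% of all 32851 windows of the same length in the table. It began 30 bases before the start in Reg1 and Reg2, 29 in Reg3b and 27 in Reg3g. Reg3g had a second match, on the opposite strand, 161 bases before the start. TTCNNNGAA occurred in Reg3b, 129 bases before the start, and in Reg3d, 238 bases before it, where it overlaps a TGGGAA match on the opposite strand, and in 7.02% of all windows. CACCTG was in 5 of 7 Reg windows (17.2% of all) and TGGGAA in 5 of 7 (21.6% of all). These are letter matches only, and binding was not measured. The motifs were chosen with the sequences in view and the Reg windows come from related genes, so the counts beside the shares are no test.

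**Figure D5:**
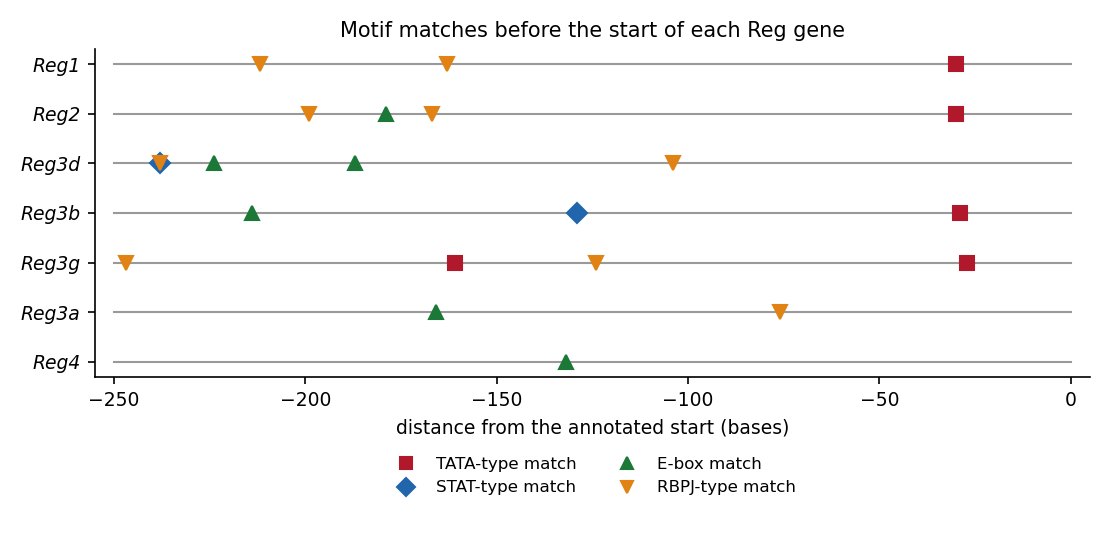
Position of motif matches in the 250 bases before the start of each Reg gene (x axis, bases, 0 is the annotated start), on either strand, by motif. TATA-type matches of Reg1, Reg2, Reg3b and Reg3g stand 27 to 30 bases before the start, and the STAT-type matches are in Reg3b and Reg3d.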

How the data were processed

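Total RNA was extracted, amplified and Cy3-labelled with a low-input kit, per the labels' protocols, and each sample was put on 1 array. Per the file headers, the authors quantified the scans with Agilent Feature Extraction 10.7.1.1 (the submitters' processing notes name 9.5.1.1), giving a detrended processed intensity per spot on a linear scale with no local background subtraction. The deposited value table holds linear intensities with a median of 37.7 in both columns. Its steps are not stated, its scale is linear, and each column correlated with its own array across probes (r = 0.9999 on log2 values). Both arrays came from 1 slide and 1 scan.

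From the processed intensity, flagged outlier spots were left out (169 on the CSE-KO array and 139 on the CSE-WT array), spots of a probe were averaged as log2 and each array's 75th percentile was subtracted (540 units on the CSE-KO array and 519 on the CSE-WT array). A gene took its brightest probe among those well above background on both arrays. Symbols were updated through the RefSeq table by accession (27229 probes), symbol or older symbol. The 24301 others kept the file's name. Spot SDs came from 399 probes printed 10 times. limma 3.58.1 in R 4.3.3 gave the normexp, quantile and cyclic loess alternatives. The number of arrays limits the precision. The members and lists were chosen with earlier results of these data known, and the motifs with the sequences in view. Named genes were all Reg probes, Cth, preset pathway and marker genes, up to 4 members of each list with the largest difference, genes within 1 Mb of Reg probes (the 4 nearest where over 8) and the 3 closest to Reg3b in difference. Some genes that this rule names are not reported here.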

Additional observations from a re-analysis of the deposited data

How the results depend on the processing

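All 4 measured Reg genes were higher in CSE-KO under the 12 planned and 2 added alternatives that kept them. Several of these alternatives could hardly move the value of a Reg gene, since they changed only the filter, probe averaging, flags, patches or scale. The Reg median was 0.73 log2 units under both normexp settings and with the uncorrected mean signal, and 0.90 scaled to the summed acinar signal, an alternative chosen after seeing the data. The other 10 settings moved it by less than 1 spot SD. The count of Reg genes at least 2-fold higher was 3 with no filter on dim probes, where Reg3a and Reg3g enter, and 4 at 1.5-fold. Over all genes, those at least 2-fold higher numbered 36 and 38 under normexp with 75th percentile scaling and with quantile normalization, 33 with the uncorrected mean signal, 1128 with no filter and 684 at 1.5-fold. Those at least 2-fold lower numbered 97 and 96 under the same normexp settings, 97 with the uncorrected mean signal, 1436 with no filter and 553 at 1.5-fold. They numbered 79 without probes in patches of dim spots, an alternative added after seeing the data, with fewer genes tested. The median of enterocyte and Paneth markers turned to 0.0183 with no filter on dim probes, where more members enter. Medians of lists within the spot SD of 0 have no settled sign. No paired analysis was possible because each genotype had 1 array, and no replicate could be left out. Signal over background limits Reg3a, Reg3g and Reg4.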
